A study of Mus musculus with 5 samples.

Results

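The ATF4 and mitochondrial stress response was described here through 34 genes in mouse embryonic stem (ES) cells given doxycycline (DOX) for 24 h to switch on a Satb1 transgene. Of these, 21 belong to the ATF4 group, made of ATF4, its partners and its target genes, and 13 to the mitochondrial group of chaperones, proteases and related proteins. A gene entered through a probe set that the array's annotation gives a single symbol, and where a gene had several such probe sets, the brightest on average over the 5 arrays was used. All 34 genes were measured, of 19938 named genes in all, and no gene was left out for a low value.

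The induced group (3 arrays) was ES cells with a tetO-Satb1 transgene given DOX, and the uninduced group (2 arrays) was ES cells titled with the same transgene and no DOX. The sample labels call the second group control, and the series title speaks of WT cells. Both groups were grown in LIF medium with serum, on irradiated feeders by the treatment protocol and in LIF only by the series' design text, and RNA was taken 48 h after passaging. The labels give no DOX dose, clone or driver of the transgene. Nor do they tell if replicate arrays were separate cultures, and the p-values therefore rest on a spread that may be technical only. With no DOX-treated cells lacking the transgene, DOX and Satb1 cannot be told apart, and in bulk RNA neither can fewer cells of a type and less RNA per cell.

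Cells under amino acid shortage, unfolded protein or mitochondrial damage phosphorylate the translation factor eIF2, which slows most protein synthesis but favours translation of the Atf4 mRNA. ATF4 protein then raises genes of amino acid uptake and synthesis, so that its targets, more than its own mRNA, report its activity. Cells with protein stress in their mitochondria raise mitochondrial chaperones and proteases. In this programme the worm Caenorhabditis elegans uses DVE-1, a homeobox protein related to the SATB family. Doxycycline blocks bacterial ribosomes and, at sufficient dose, the related mitochondrial ribosomes, which is why such a response is of interest in DOX-induced cells.

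ATF4 acts on many of its target genes through a composite site, the C/EBP-ATF response element. Promoter stretches of members that hold its letters are shown to let the levels of those members be read beside the letters. The letters TGATGNAA were searched on both strands in RefSeq promoters of GRCm38.p6, which run from 250 bases before to 50 bases after each start site. A match was found in 7 of the 19 ATF4 group genes with a promoter in the table (36.8%), in 0 of 11 mitochondrial group genes and in 4.51% of all 27025 genes. The ATF4 group was chosen to hold target genes of ATF4, so its share is no independent result. Capitals mark the match, read 5′ to 3′ on the strand of the gene. Slc7a11 has a pair of matches in opposite orientation.
Asns, chr6:7693214-7693243, minus strand: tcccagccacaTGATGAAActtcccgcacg
Atf3, chr1:191183425-191183454, minus strand: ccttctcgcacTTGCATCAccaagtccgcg
Chac1, chr2:119351038-119351067, plus strand: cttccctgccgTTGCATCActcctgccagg
Fgf21, chr7:45615611-45615640, minus strand: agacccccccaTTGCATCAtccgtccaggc
Slc7a11, chr3:50443642-50443690, minus strand: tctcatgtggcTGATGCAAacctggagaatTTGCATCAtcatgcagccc
Trib3, chr2:152344028-152344057, minus strand: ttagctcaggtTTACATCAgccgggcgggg
Vldlr, chr19:27216809-27216838, plus strand: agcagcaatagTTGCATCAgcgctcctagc

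Hspd1 and Hspe1, which encode the large and small parts of the matrix chaperonin, lie head to head and share 1 promoter. It held the heat shock element letters GAANNTTCNNGAA as overlapping matches on opposite strands, and these letters occurred in 0.662% of all genes and in these 2 of the 11 mitochondrial group genes with a promoter. The stretch is shown on the Hspe1 strand, with the matches in capitals, because both genes are read below.
Hspe1, chr1:55088054-55088081, plus strand: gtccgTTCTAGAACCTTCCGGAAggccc

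The induction itself was large. Satb1, which encodes a chromatin organiser of the nucleus, had log2 levels of 8.61, 8.79 and 8.68 on the induced arrays, against 4.95 and 5.34 on the uninduced arrays. All 3 induced arrays lay far above both uninduced arrays, by 11.7-fold on average. Even so, Satb1 had an adjusted p of 0.229 in limma over all genes and was not called. In a second limma fit, described below with the ties, its adjusted p was 0.00384 and it was the only gene called. Any 2 arrays correlated at a Pearson's r of 0.9972 to 0.9979 across genes, which are not independent replicates. The mean of 12 ES cell markers such as Pou5f1 and Sox2 was 8.849, 8.809 and 8.846 on the induced arrays, against 8.853 and 8.905 on the uninduced arrays. Each induced array thus lay below both, and 8 of the 12 had a lower mean. Their median log2 change was only -0.0036. A change of -0.2 or less was reached by 2 of the 12 (1.59% of all genes), the lowest at -0.35, so the shift of the mean was not even across the markers. The mean of 24 fibroblast markers, for feeder cells, was 5.46, 5.48 and 5.49 in induced, against 5.44 and 5.45 in uninduced arrays, so each induced array lay slightly above both. What these marker shifts contribute to the results below was not tested, apart from a fit with the fibroblast mean as a covariate. The mean of 11 primitive endoderm markers was 5.41, 5.38 and 5.43 on induced arrays, against 5.41 and 5.40 on uninduced arrays.

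None of the 34 stress genes was called higher or lower after DOX, by a test that did not call Satb1 either. In limma over all genes with Benjamini-Hochberg adjustment, 0 members passed an adjusted p of 0.05 in the higher direction, where 0.01% of all genes did, and 0 in the lower direction, where 0.00502% did. At an unadjusted p under 0.05 in limma, 0 members were higher (0.481% of all genes) and 1, Shmt2, was lower (1.07% of all genes). The members' adjusted p-values in limma ran from 0.770 to 1. The median log2 change, induced minus uninduced, was 0 in the ATF4 group, -0.014 in the mitochondrial group and 0 over all genes.

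Changes of the members were small. In 32 of 34 genes the log2 change lay within 0.1 of 0, and the exceptions were Phgdh at 0.35 and Shmt2 at -0.19. Changes were small over all genes too, with quartiles of -0.035 and 0.026, against -0.021 and 0.018 in the members. Only Phgdh reached a log2 change of 0.2 in the higher direction, a size that 1.16% of all genes reached, and 0 members reached it in the lower direction, against 1.59% of all genes. All induced arrays lay above both uninduced arrays in 0 members (1.65% of all genes), and below them in 1 member (3.08% of all genes). Means were higher in induced cells for 11 members, lower for 14 and equal for 9.

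**Figure D1:**
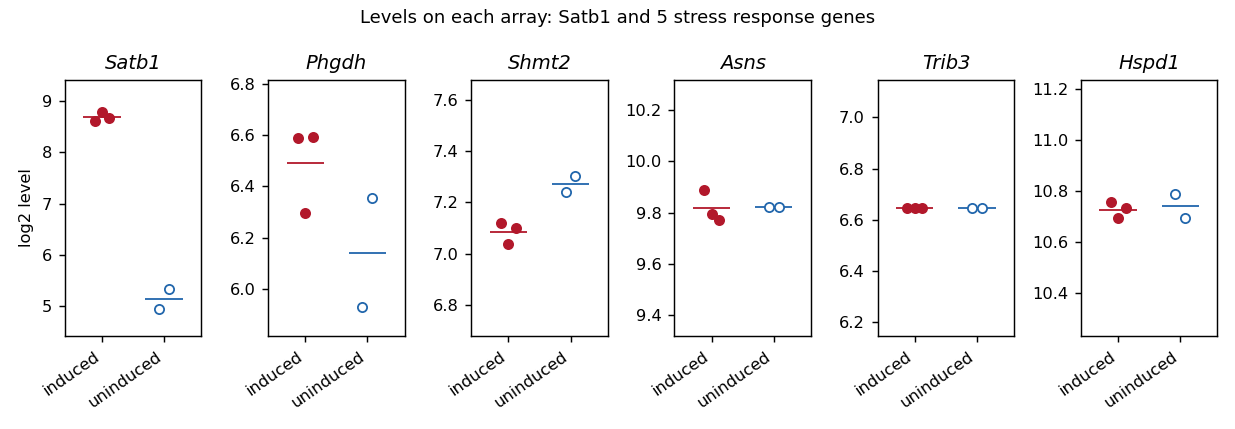
Log2 level of Satb1 and 5 stress response genes on each array. Red filled points are the 3 induced arrays and blue open points the 2 uninduced arrays, with a line at each group mean; the Satb1 axis spans 5 log2 units and the others 1. Satb1 differs by 3.55, Shmt2 separates by 0.19 without overlap, Phgdh overlaps, and Trib3 has 1 value on all arrays.

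The equal means come from exact ties in the deposited values. The same value stood on all 5 arrays in 9 of 34 members (26.5%), against 15.1% of all genes, namely Atf4, Ddit3, Trib3, Ppp1r15a, Aldh1l2, Slc7a11, Dnaja3, Clpx and Endog. Such ties are a known feature of summaries built on medians of probes, and a tie says that the summary did not move, not that the RNA was the same. Standard errors of tied genes are therefore too small, and 95% intervals were taken from a limma fit whose prior spread came from the 1800 genes with 5 distinct values. That fit also gives the standard errors printed after ± below. In it 0 members passed an adjusted p of 0.05 (0.00502% of all genes passed), each member had an adjusted p of 1, and 1 member, Shmt2, had an unadjusted p under 0.05.

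Those intervals give limits for the array summaries, not for the RNA of tied or dim genes. The whole 95% interval lay within 1.5-fold in either direction for 33 of 34 members, as it did for 98.5% of all genes, and the exception was Phgdh. Apart from Phgdh, no upper limit exceeded 1.25-fold, that of Cebpb. The lowest lower limit was 0.790-fold, that of Shmt2. For a gene tied on all arrays the limits were 0.911-fold and 1.10-fold, and they rest on the spread of other genes. Of the members, 6 lay below the median level of all genes, among them Slc7a11, Fgf21 and Vldlr.

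**Figure D2:**
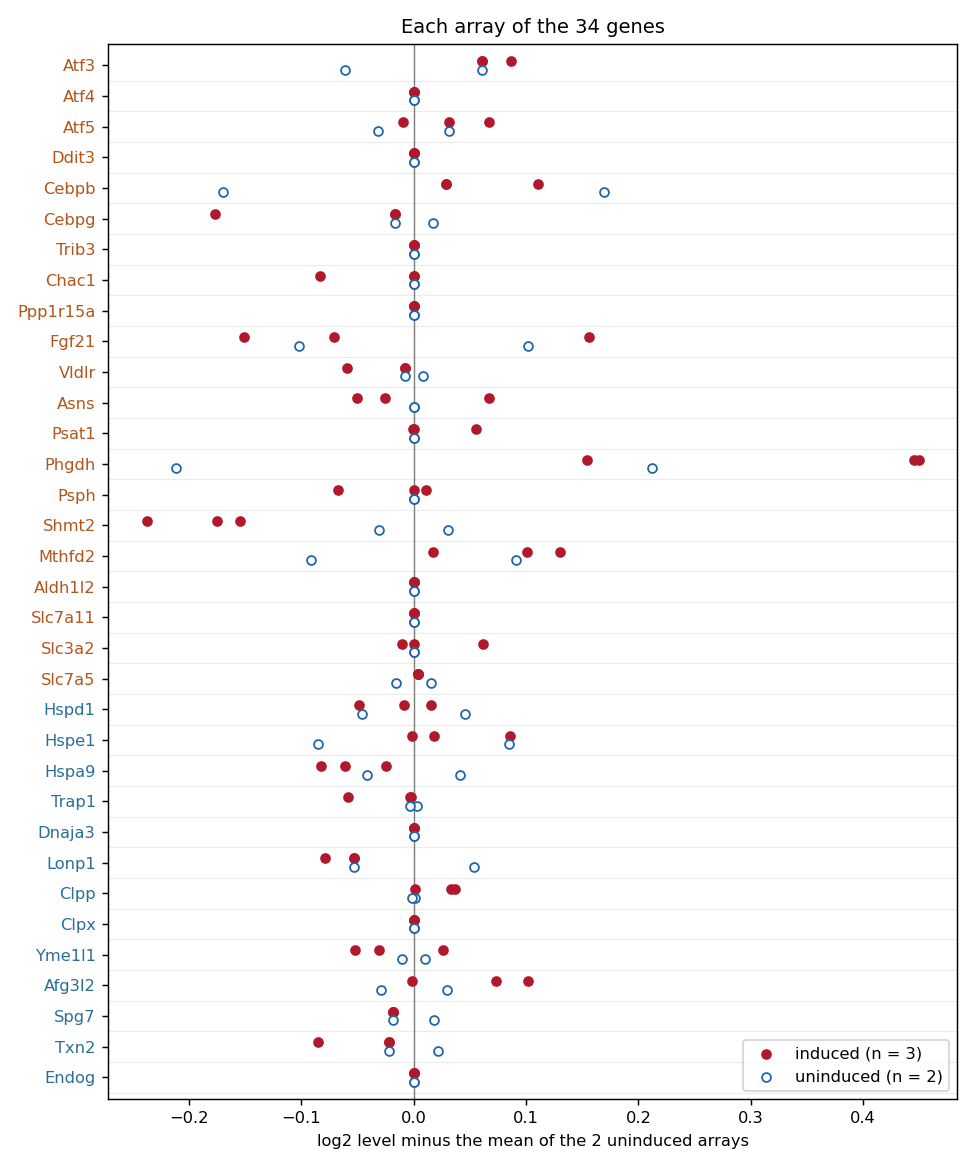
Each array's log2 level of the 34 genes minus the mean of the 2 uninduced arrays. Red filled points are induced arrays and blue open points uninduced arrays; gene names in orange are the ATF4 group and those in blue the mitochondrial group. The groups overlap or touch in every gene but Shmt2, where all induced points lie to the left.

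Transcription factors of the response did not separate the groups. Atf4, the central factor, had a log2 level of 7.63 on each of the 5 arrays, and Ddit3, which encodes the pro-apoptotic factor CHOP, had 5.07 on each. Atf3, an early stress-induced repressor, had 5.46, 5.43 and 5.43 in induced, against 5.43 and 5.31 in uninduced cells. Its mean differed by 0.07 ± 0.06 (standard error), with uninduced array 2 the lowest, and the other uninduced array tied with 2 induced arrays. Atf5, a factor linked to mitochondrial stress in mammalian cells, had 5.83, 5.79 and 5.86 in induced, against 5.83 and 5.77 in uninduced cells, with overlapping groups and a change of 0.03 ± 0.06. The ATF4 partners Cebpb and Cebpg had changes of 0.06 ± 0.11 and -0.07 ± 0.07. In Cebpb the uninduced arrays, at 4.78 and 5.12, lay on either side of all induced arrays, at 4.98, 5.06 and 4.98. Cebpg was low on induced array 2 alone, at 5.75, against 5.91 on the other 2 induced arrays and 5.91 and 5.95 on the uninduced arrays.

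Feedback and effector genes did not separate the groups either. Trib3, a pseudokinase that restrains ATF4 and has the composite letters just after its start, had 6.65 on all 5 arrays. Ppp1r15a, the GADD34 subunit that directs removal of the phosphate from eIF2, had 5.31 on all. Chac1, which degrades glutathione and is among the sharpest ATF4 and CHOP targets, had 6.08, 6.0 and 6.08 on the induced arrays, against 6.08 on both uninduced arrays. Only induced array 2 differed, and it was lower. Fgf21, a secreted metabolic hormone, had 4.61, 4.69 and 4.92 in induced, against 4.86 and 4.66 in uninduced cells, and its arrays spread within both groups by more than its change of -0.02 ± 0.11. Vldlr, a lipoprotein receptor, had 4.63, 4.58 and 4.63 in induced, against 4.65 and 4.63 in uninduced cells.

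Amino acid and folate enzymes held both of the larger changes, in opposite directions. Phgdh, the entry step of serine synthesis, had 6.59, 6.30 and 6.59 on the induced arrays, against 5.93 and 6.35 on the uninduced arrays. Induced array 2 fell below uninduced array 2, so the groups overlapped. The change was 0.35 ± 0.15 (standard error), or 1.27-fold, with an adjusted p of 0.770 in limma over all genes and a 95% interval from 0.979-fold to 1.66-fold. It rested largely on uninduced array 1: the change was 0.14 without that array and 0.56 without uninduced array 2. It was 0.19 in a fit with the fibroblast marker mean as a covariate, which called 0 members and 0 of all genes in either direction.

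Shmt2, the mitochondrial enzyme that turns serine into glycine and feeds the folate pool, was the one member whose groups did not overlap. It had 7.12, 7.04 and 7.10 on the induced arrays, against 7.24 and 7.30 on the uninduced arrays, a change of -0.19 ± 0.06 (standard error). The induced level was 0.877-fold the uninduced one, with a 95% interval from 0.790-fold to 0.975-fold. It did not pass over all genes (adjusted p = 0.770, limma), and leaving out any 1 array gave changes between -0.22 and -0.16.

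Psat1 and Psph, the steps between Phgdh and serine, had changes of 0.02 ± 0.06 and -0.02 ± 0.06, and both overlapped or tied between groups. Mthfd2, the next mitochondrial folate enzyme, had 7.55, 7.47 and 7.58 in induced, against 7.54 and 7.36 in uninduced cells, and overlapped. Mthfd1l, a further mitochondrial folate enzyme and no member, lay lower on every induced array, at 7.20, 7.28 and 7.15, against 7.32 and 7.36 on the uninduced arrays. Aldh1l2, a mitochondrial folate dehydrogenase, had 4.32 on all 5 arrays. Asns, the asparagine synthetase and a classic amino acid response gene with the composite letters, had 9.89, 9.79 and 9.77 in induced, against 9.82 and 9.82 in uninduced cells. The induced arrays of Asns lay on both sides of the uninduced value, and the change was -0.0033 ± 0.06.

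The 3 amino acid transporters had changes between 0 and 0.017. Slc7a11, the cystine and glutamate exchanger whose promoter holds a pair of matches to the composite letters, had 4.17 on all 5 arrays. Slc3a2, the heavy chain it shares with Slc7a5, had 9.59, 9.52 and 9.53 in induced, against 9.53 on both uninduced arrays. Slc7a5, the leucine transporter LAT1, had 9.05 on all 3 induced arrays, against 9.03 and 9.06 on the uninduced arrays. The induced value of Slc7a5 lay between the uninduced ones.

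None of the 5 mitochondrial chaperones was called, as was true of nearly all genes, and each had overlapping or tied groups. Hspd1 (HSP60) had 10.76, 10.69 and 10.73 on the induced arrays, against 10.79 and 10.70 on the uninduced arrays, and Hspe1 (HSP10) had 10.60, 10.58 and 10.66, against 10.66 and 10.49. Both pairs of groups overlapped, with changes of -0.014 ± 0.06 and 0.03 ± 0.08, and a second probe set of each gene had -0.05 and 0.04. Where the probe sets of Hspd1 and Hspe1 lie in the genome was not examined, so none is tied here to the promoter shown. The 95% intervals ended at 1.10-fold for Hspd1 and 1.16-fold for Hspe1. Hspa9 (mortalin), which pulls proteins into the matrix, had 10.24, 10.19 and 10.21 in induced, against 10.31 and 10.23 in uninduced cells, with 1 induced array above the lower uninduced one. Trap1, the mitochondrial HSP90, was at 8.60, 8.60 and 8.54, against 8.60 and 8.60 in uninduced cells. Dnaja3, a co-chaperone of Hspa9, had 6.82 on all 5 arrays.

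Mitochondrial proteases were as close. Lonp1, the matrix protease, had 7.35, 7.35 and 7.32 in induced, against 7.35 and 7.45 in uninduced cells, so that its change of -0.06 ± 0.06 came from uninduced array 2. Clpp, the matrix peptidase, had 7.91, 7.90 and 7.87, against 7.87 and 7.87 in uninduced cells, and induced array 3 tied with uninduced array 1. Its unfoldase partner Clpx had 6.79 on all 5 arrays. Of the inner membrane proteases, Yme1l1 had 9.53, 9.45 and 9.47 in induced, against 9.49 and 9.51 in uninduced cells, and Afg3l2 had 7.64, 7.61 and 7.54, against 7.51 and 7.57. Both overlapped between groups. Spg7, which assembles with Afg3l2, had 5.83 on every array but uninduced array 1, at 5.86. Txn2, the mitochondrial thioredoxin, had 7.35, 7.35 and 7.29 in induced, against 7.35 and 7.39 in uninduced cells, and the mitochondrial nuclease gene Endog had 4.09 on all.

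**Figure D3:**
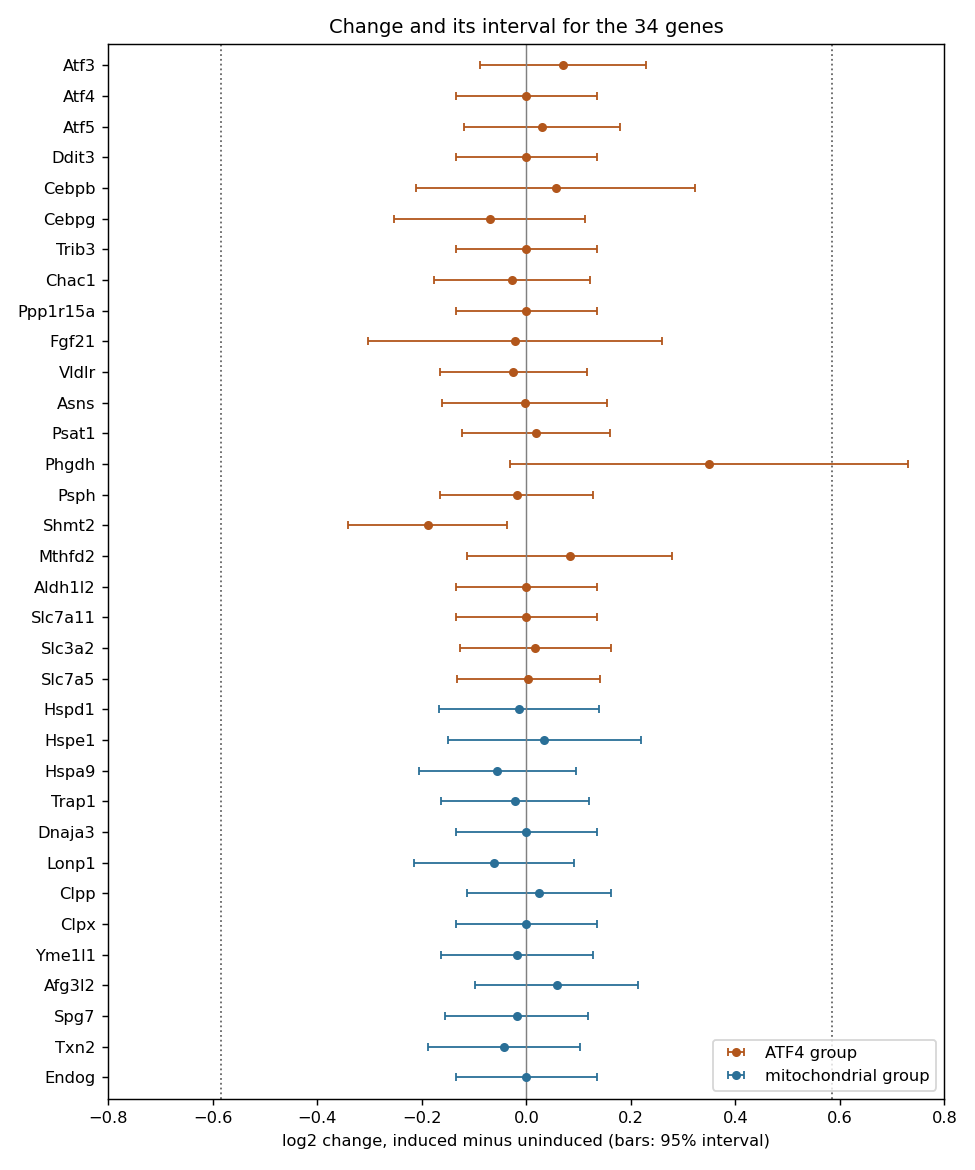
Log2 change, induced minus uninduced, of the 34 genes with 95% intervals from the fit whose prior spread came from genes with 5 distinct values. Dotted lines mark 1.5-fold in either direction; the intervals of 33 genes lie inside them, and that of Phgdh crosses the upper line.

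As groups, the members followed no common direction. The mean of the 21 ATF4 group genes was 6.41, 6.37 and 6.42 on the induced arrays, against 6.38 and 6.40 on the uninduced arrays. The mean of the 13 mitochondrial genes was 7.96, 7.94 and 7.94, against 7.96 and 7.95. In both groups the induced and uninduced arrays overlapped. Induced array 2 was the single lowest array in 9 members and the single highest in 0. This array was singled out after its values were seen.

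Wider stress pathways gave the same count of calls, 0 in either direction among 114 measured genes of 135 listed (limma, adjusted over all genes). Of all genes, 0.01% were called higher and 0.00502% lower, so a list of this size would rarely hold a call. An unadjusted p under 0.05 was met by 2 genes with a higher mean (0.481% of all genes) and 2 with a lower mean (1.07% of all genes). All induced arrays lay above both uninduced arrays in 4 of the 114 (1.65% of all genes) and below them in 10 (3.08% of all genes). Of 24 other ATF4 targets, 8 had a higher and 14 a lower mean, with a median of -0.0072. The largest changes there were in Ddit4, an inhibitor of mTORC1, at -0.50 ± 0.08, Stc2, a secreted stanniocalcin, at -0.37 ± 0.08, and Mthfd1l at -0.13 ± 0.07. These 3 and Eif4ebp1, an inhibitor of cap-dependent translation at -0.09, were the 4 of 24 with every induced array below both uninduced arrays, as were 3.08% of all genes, and 0 of 24 had every induced array above. Ddit4 and Stc2 are also known as hypoxia-induced genes. Ddit4 had 6.0, 6.08 and 5.87 in induced, against 6.46 and 6.50 in uninduced cells. Stc2 had 6.14, 5.96 and 5.99 in induced, against 6.47 and 6.32 in uninduced cells. Neither passed over all genes (adjusted p = 0.770 for both, limma).

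Upstream of ATF4, the kinases and partners of eIF2 had a median change of -0.026 over 14 genes, 10 of them with a lower mean. Eif2ak2, the double-stranded RNA kinase PKR, had -0.22 ± 0.10, Eif2ak3, the ER kinase PERK, -0.08 ± 0.07, and Dele1, which relays mitochondrial stress to eIF2 kinases, 0.08 ± 0.07. The 11 cytosolic aminoacyl-tRNA synthetases, a further ATF4 target family, had a median of -0.0055 and changes from -0.09 to 0.03. In 1 of these 11 every induced array lay above both uninduced arrays, and in 0 below. The 20 genes of mitochondrial import and processing had a median of 0.0012, with the largest change in the import receptor Tomm20 at -0.10 ± 0.07. Tomm20 was also the 1 of these 20 with every induced array below both uninduced arrays, and 0 had every induced array above.

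Other stress programmes were likewise without a call, as were nearly all genes. The ER unfolded protein response had a median of -0.019 over 20 genes, 14 of them lower, led by the ER co-chaperone Dnajb9 at -0.28 ± 0.13. The 11 cytosolic heat shock genes had a median of -0.015, and their largest change was -0.08 ± 0.07, in the co-chaperone Stip1. The NRF2 oxidative list had 7 of 12 genes with a higher mean and a median of 0.0094. Nqo1, a quinone reductase, was highest there at 0.23 ± 0.06, with 6.55, 6.48 and 6.51 in induced, against 6.24 and 6.32 in uninduced cells. In 3 of the 12, Nqo1, the thioredoxin reductase Txnrd1 (0.05 ± 0.06) and the glutathione transferase Gsta4 (0.09 ± 0.06), all induced arrays lay above both uninduced arrays, as in 1.65% of all genes. Nqo1 and Txnrd1 were the 2 higher genes with an unadjusted p under 0.05 in limma over all genes, and none of the 3 passed there (adjusted p = 0.770 for each). That fit is not the one that gives the standard errors after ±. For Txnrd1, tied at 8.29 on 2 induced arrays, its standard error was 0.014, which the tie may make too small. In the fit behind ±, the change of Txnrd1 was smaller than its standard error. Of the mitochondrially encoded subunits only ND3 and COX2 had a probe set with a single symbol, and their changes were 0.16 ± 0.10 and 0.0024 ± 0.07.

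**Figure D4:**
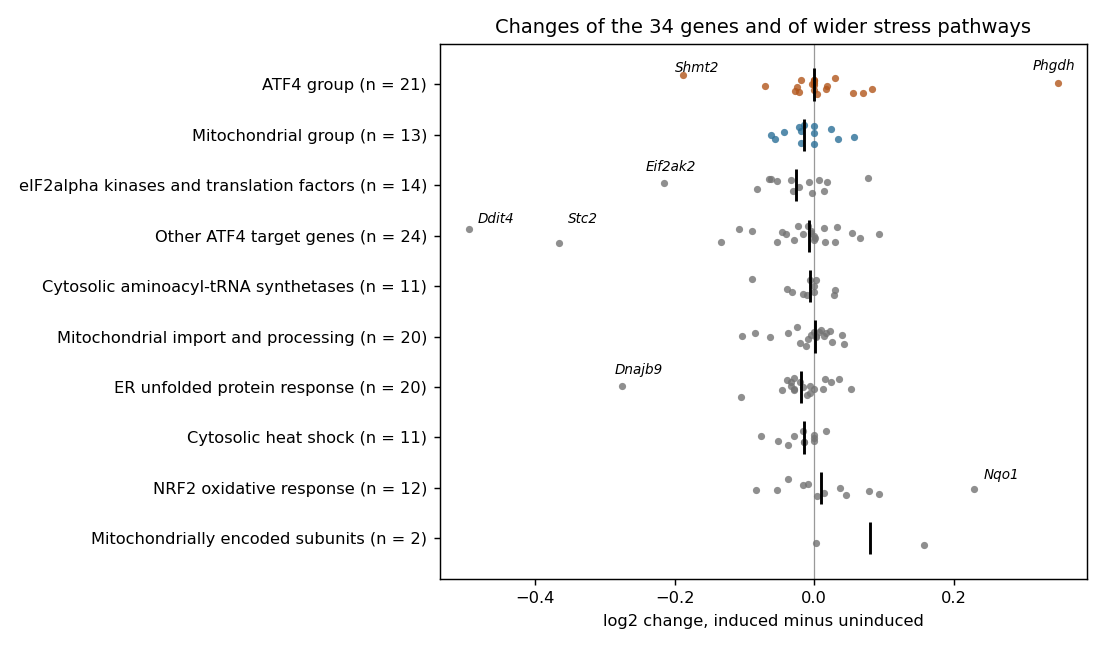
Log2 change, induced minus uninduced, of each gene (points) in the 2 member groups and 8 wider stress lists, with a black bar at each list's median. Nearly all points lie close to 0; Phgdh at 0.35 and Nqo1 at 0.23 stand highest and Ddit4 at -0.50 lowest.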

How the data were processed

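RNA was measured on 5 arrays, and the deposited values are log2 levels of 35557 probe sets that the authors made with RMA, which corrects background, normalizes arrays to each other and makes 1 value a probe set. RMA is named, with no version, per the submitters' processing notes. The log2 scale was read from the values, 0.79 to 13.1. Normalization between arrays would hide a shift of all transcripts. Probe sets with 1 symbol (21789) gave 19938 genes. Genes were tested with limma 3.58.1 in R 4.3.3 (lmFit, eBayes, no trend, no filter) and p-values were adjusted over all genes (Benjamini-Hochberg, threshold 0.05). An exact permutation test of 1 gene has 10 splits of the arrays, cannot go below 0.1 and was not used. Precision is limited by the number of arrays. For the prior SD, limma estimated 0.00495 over all genes and 0.0859 over genes with 5 distinct values, and the second gave the 95% intervals and standard errors. Members and lists were chosen with earlier results of these data known. All 34 members are named, and of each wider list up to 3 genes with the largest change, with values for other genes chosen after they were seen. The scripts were tested on simulated data that had no ties and a common spread for all genes, so that test does not cover the ties. Alternatives were other probe set rules, a level filter, other scalings, spread estimates and thresholds, the title number as a block, a fibroblast covariate and each array left out. All 34 members matched the GRCm38.p6 gene table by gene identifier.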

Additional observations from a re-analysis of the deposited data

How the results depend on the processing

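Counts of members called were 0 in both directions under every alternative that kept all 5 arrays. These fits called only 0 to 3 of all genes, so a count of 0 members says little about the members. In them 34 members were tested, except among genes above the median level (28) and genes untied within both groups (12). With single arrays left out, the count of members called ran from 0 to 1 in the higher direction and from 0 to 1 in the lower direction. The calls came in fits with 1 uninduced array, which take their spread from the induced arrays, where tied genes have none: these fits called 1980 and 1979 of all genes. Slc7a5 was called lower, at -0.012, without uninduced array 1 (its sign reversed) and higher, at 0.019, without uninduced array 2, and Spg7 was called lower, at -0.037, without uninduced array 2. The median change of the ATF4 group lay between 0 and 0.0024 and that of the mitochondrial group between -0.019 and 0 when 1 array was left out. Other alternatives moved them further. The ATF4 group had 0.030 over its 5 genes untied within both groups, and the mitochondrial group had 0.025, with its sign changed, under the fibroblast covariate. The yardstick for these moves was the SD between arrays, pooled within groups, of each member group's median level. It was 0.060 for the ATF4 group and 0.050 for the mitochondrial group, and no alternative moved a median change by more. That SD follows the genes of middle level, Afg3l2 in the mitochondrial group. It therefore does not tell if these moves are small for a group. The number in the titles was not shown to pair the arrays: deviations of same-numbered arrays from their group means correlated at -0.0063 and 0.0063. With it as a replicate block, 0 members and 0 of all genes were called in either direction, and the medians were 0 and -0.0029. Across all alternatives 15 members, Slc7a5 among them, changed sign at least once, at sizes up to 0.16.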

Other observations

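Beyond the members, 565 measured genes had the composite C/EBP-ATF letters TGATGNAA in the RefSeq promoter window of GRCm38.p6. Their median log2 change was 0, with 240 higher, 226 lower and 99 equal means. All induced arrays lay above both uninduced arrays in 10 of them (1.77%, against 1.65% of all genes) and below in 19 (3.36%, against 3.08% of all genes). The 88 measured genes with the heat shock letters GAANNTTCNNGAA had a median of -0.0088, with 31 higher, 51 lower and 6 equal means. All induced arrays lay above both uninduced arrays in 2 of these (2.27%) and below in 4 (4.55%). A match is a description of the letters and not a binding site.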
